A study of Homo sapiens with 5 samples.

Results

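The 10 cadherin genes CDH1, CDH2, CDH3, CDH4, CDH5, CDH6, CDH11, CDH13, CDH16 and CDH17 were followed in gefitinib-resistant and parental lung adenocarcinoma cells. They were taken by gene symbol from a table of 37181 genes or assembled loci, in which they held 12 entries, since CDH3 and CDH13 had 2 entries each. For each symbol the entry with the highest mean over the 5 libraries was used, and both entries of CDH3 and of CDH13 were given. The question was whether the resistant cells had exchanged the E-cadherin gene CDH1 for the N-cadherin gene CDH2, and what the other family members did at the same time.

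HCC827 is an established human lung adenocarcinoma cell line that carries a deletion in exon 19 of EGFR. HCC827/GR cells were derived from it by gradually increasing doses of the EGFR inhibitor gefitinib for more than 6 months, and both lines carry the deletion. RNA was sequenced from 3 libraries of HCC827/GR cells (replicates 1, 2 and 3) and from 2 libraries of parental, gefitinib-sensitive HCC827 cells (replicates 2 and 3). The labels do not say whether the libraries came from separate cultures. If they did not, p-values measure only the spread between these libraries and not that between cultures. The labels also do not say whether HCC827/GR is 1 clone.

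Classical cadherins are calcium-dependent adhesion receptors that hold neighbouring cells together by binding the same cadherin on the next cell. Their cytoplasmic tail binds p120-catenin near the membrane and β-catenin or plakoglobin at its end, and α-catenin ties this complex to actin at the adherens junction. Epithelial cells mostly carry E-cadherin, and the loss of E-cadherin with a gain of N-cadherin, known as the cadherin switch, is a widely used sign of epithelial-mesenchymal transition (EMT).

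The members are not all classical cadherins in the strict sense. CDH1 (E-cadherin), CDH2 (N-cadherin), CDH3 (P-cadherin) and CDH4 (R-cadherin) are the type I classical cadherins, and CDH5 (VE-cadherin), CDH6 (K-cadherin) and CDH11 (OB-cadherin) are of type II. CDH13 (T-cadherin) is held in the membrane by a lipid anchor and has no cytoplasmic tail, and CDH16 (kidney-specific cadherin) and CDH17 (liver-intestine cadherin) have a short tail that lacks the catenin-binding end. This split can be read in the coding sequence. The 4 lines show the stretch of 60 coding bases near the end of the coding sequence of each type I member, because this is the end of the tail that binds β-catenin and plakoglobin. Capitals mark the 42 positions at which all 4 genes hold the same base. The sequences come from the GENCODE 29 transcripts on GRCh38, each lies within the last coding exon, and they were chosen after the sequences had been seen.
CDH1: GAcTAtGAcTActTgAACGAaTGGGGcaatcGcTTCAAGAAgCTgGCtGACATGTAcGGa
CDH2: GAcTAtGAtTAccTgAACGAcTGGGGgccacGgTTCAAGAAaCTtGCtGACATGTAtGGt
CDH3: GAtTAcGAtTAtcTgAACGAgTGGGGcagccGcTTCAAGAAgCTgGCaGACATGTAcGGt
CDH4: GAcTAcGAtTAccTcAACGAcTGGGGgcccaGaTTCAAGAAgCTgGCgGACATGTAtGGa

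These stretches lie at chr16:68833422-68833481 on the plus strand for CDH1, chr18:27952168-27952227 on the minus strand for CDH2, chr16:68698323-68698382 on the plus strand for CDH3 and chr20:61936866-61936925 on the plus strand for CDH4. The stretch ended 18 bases before the end of the coding sequence, stop codon included, in CDH1, CDH3 and CDH4, and 15 bases before it in CDH2. Compared with CDH1, 48 of the 60 bases were identical in CDH2, 50 in CDH3 and 47 in CDH4. The best in-frame match anywhere in the coding sequence shared 43 bases in CDH5, 45 in CDH6 and 40 in CDH11, and it also lay near the end of the coding sequence. The best match shared 27 bases in CDH13, 27 in CDH16 and 25 in CDH17, which are the 3 members without the catenin-binding end. The main CDH1 and CDH3 entries and the CDH2 entry therefore stand for cadherins of the same tail type, with coding sequences of 903, 829 and 906 codons.

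Expression was given as FPKM (fragments scaled to transcript length and library total), a unit that allows levels of different genes to be compared per length. FPKM carries no read counts, which leaves library depth unknown and allows no counting error. A gene was called when its Benjamini-Hochberg adjusted p was under 0.05 in limma on log2(FPKM + 1), which was run on all 16189 entries whose mean over the libraries reached 0.5 FPKM. Over these entries, which are not independent replicates, any pair of libraries from 1 line had a Pearson correlation of 0.913 to 0.927 and any pair from both lines had 0.851 to 0.873, on log2(FPKM + 1). The epithelial markers EPCAM, KRT8, KRT18 and KRT19 were expressed in all 5 libraries. The lung markers of the same list were low. NKX2-1 had means of 0.714 FPKM in HCC827/GR and 4.30 FPKM in HCC827 cells. It was called lower (log2 fold change -1.64, limma, adjusted p = 0.0115). SFTPB had at most 0.139 FPKM in any library, and KRT7 and NAPSA had no values. The summed level of the 6 epithelial and lung markers with a value was mostly keratin. It was 437.7 to 565.7 FPKM in HCC827/GR and 1033 to 1161 FPKM in HCC827 cells.

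The E-cadherin, P-cadherin and liver-intestine cadherin genes fell in HCC827/GR cells, and the N-cadherin gene rose. Of the 10 members, 4 had enough expression to be tested (CDH1, CDH2, CDH3 and CDH17), and all 4 were called, 1 higher and 3 lower. Of all tested entries, 11.0% were called in either direction, 5.26% higher and 5.71% lower. CDH17 reached the filter only through its level in HCC827 cells, so the count over the tested members is a description. The median log2 fold change over the 4 tested members was -1.45, and over all tested entries it was 0.0014.

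**Figure D1:**
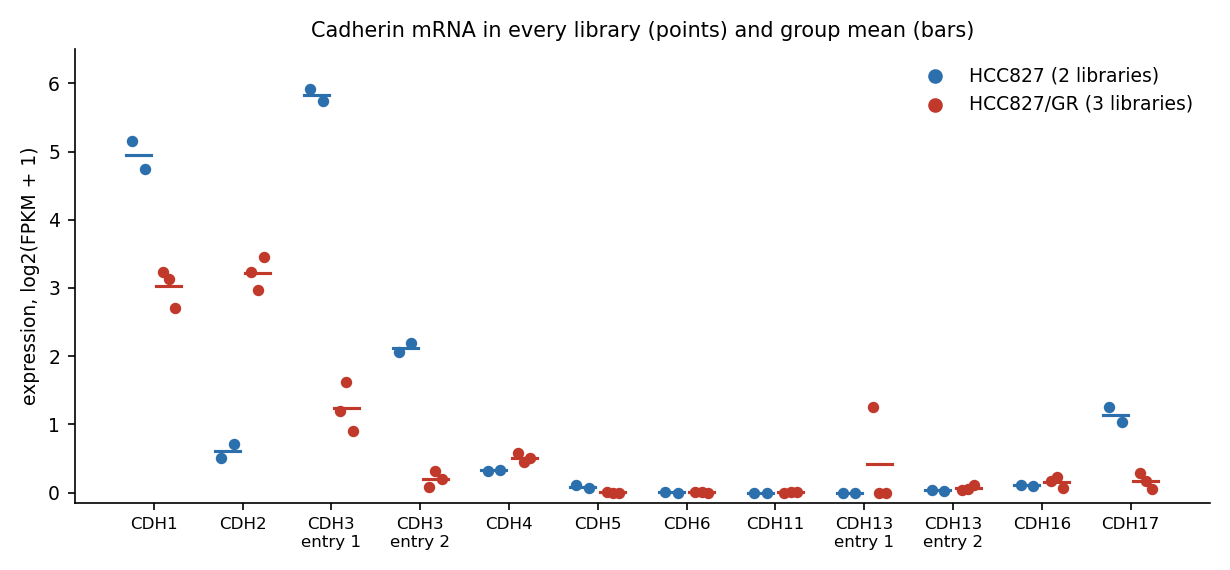
Expression of the 12 entries of the 10 cadherin genes as log2(FPKM + 1), with 1 point for each library and a bar at the group mean. CDH1, both CDH3 entries and CDH17 lie lower in the 3 HCC827/GR libraries and CDH2 lies higher, whereas CDH5, CDH6, CDH11 and CDH16 lie near 0 in every library.

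CDH1 encodes E-cadherin, the main adhesion receptor of epithelial cells, and its gene spans chr16:68737225-68835548 on the plus strand. Its level was 8.37, 7.79 and 5.50 FPKM in HCC827/GR replicates 1, 2 and 3, and 34.8 and 25.9 FPKM in HCC827 replicates 2 and 3. The highest resistant library lay far below the lowest parental library, so the groups did not overlap. The mean was 7.22 ± 1.52 FPKM (SD, n = 3) against 30.3 ± 6.25 FPKM (SD, n = 2), a ratio of the means of 4.20-fold lower. CDH1 fell by 1.93 on the log2(FPKM + 1) scale (standard error 0.22, limma, adjusted p = 0.0125). It was not lost, since 76.0% of all tested entries had a lower mean than CDH1 in HCC827/GR cells, compared with 95.7% in HCC827 cells. The call depended on both parental libraries, because the adjusted p was 0.0798 without HCC827 replicate 2 and 0.0550 without HCC827 replicate 3.

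CDH2 encodes N-cadherin, the cadherin of neural and mesenchymal cells, and its gene spans chr18:27950966-28177446 on the minus strand. The level of CDH2 was 8.41, 6.85 and 9.95 FPKM in resistant replicates 1, 2 and 3 and 0.415 and 0.645 FPKM in the 2 HCC827 libraries. All 3 resistant libraries were higher than both parental libraries by a wide margin. The means were 8.40 ± 1.55 FPKM (SD, n = 3) and 0.530 ± 0.163 FPKM (SD, n = 2), a ratio of the means of 15.9-fold higher in HCC827/GR. On the log2(FPKM + 1) scale CDH2 rose by 2.61 (standard error 0.18, limma, adjusted p = 0.00464), which understates the ratio because the parental level is low. By size of this change, CDH2 ranked 29 of the 851 entries called higher. In the parental cells 6.75% of the tested entries had a lower mean than CDH2, and in HCC827/GR cells 79.4% did. The call was kept when each of the 5 libraries was left out in turn, with adjusted p between 0.0186 and 0.0418.

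CDH3 encodes P-cadherin, a cadherin of basal epithelial layers and placenta, and its gene lies directly before CDH1 on the same strand, at chr16:68636189-68722616. Its main entry had 1.28, 2.09 and 0.873 FPKM in the resistant libraries and 59.5 and 52.7 FPKM in the HCC827 libraries. CDH3 was the most abundant of the 10 members in both parental libraries, above CDH1, and it lay below both CDH1 and CDH2 in all 3 resistant libraries. The means were 1.42 ± 0.619 FPKM (SD, n = 3) and 56.1 ± 4.84 FPKM (SD, n = 2), a ratio of the means of 39.6-fold lower. CDH3 fell by 4.59 on the log2(FPKM + 1) scale (standard error 0.23, limma, adjusted p = 0.00248). By size of this change it ranked 1 of the 924 entries called lower, where CDH1 ranked 116 and CDH17 ranked 521. This rank depends on the 1 FPKM added before the logarithm. With 0.1 FPKM added instead, the log2 fold change was -5.29 for CDH3 and -5.37 for GRHL2, a gene described below. The ratio of the means was also larger for GRHL2 (335-fold lower) and PCDH1 (61.7-fold lower), which were near 0 in HCC827/GR cells. Without each library in turn the adjusted p for CDH3 was between 0.0159 and 0.0371, so the call was kept each time.

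The other CDH3 entry holds a single non-coding transcript of the gene at chr16:68696144-68696923, which lies in the intron between exons 15 and 16 of the coding transcript with 16 exons and overlaps none of its exons. Its level was 0.0606, 0.247 and 0.150 FPKM in HCC827/GR cells and 3.17 and 3.57 FPKM in the HCC827 libraries. The groups did not overlap here either, and the ratio of the means was 22.1-fold lower in HCC827/GR cells. The CDH3 entry 2 fell by 1.93 on the log2(FPKM + 1) scale (standard error 0.13, limma, adjusted p = 0.00469). This entry reached the filter only through HCC827 cells, so it could be tested only as lower. An antisense gene, CDH3-AS1, lies within CDH3 in RefSeq, and the sources used here do not say whether reads were assigned by strand, so reads from the antisense gene cannot be told apart from those of CDH3.

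CDH4 encodes R-cadherin, known from the retina and brain, and completes the type I members. The level of CDH4 was 0.489, 0.369 and 0.427 FPKM in HCC827/GR replicates 1 to 3 and 0.249 and 0.258 FPKM in the HCC827 libraries. Each resistant library was higher than each parental library, with means of 0.428 ± 0.0601 FPKM (SD, n = 3) and 0.254 ± 0.00609 FPKM (SD, n = 2) and a ratio of 1.69. The gene was not tested because its mean over the 5 libraries was under 0.5 FPKM, and 46.3% of all tested entries likewise showed no overlap between the groups.

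The type II members were near 0 in every library. CDH5, the VE-cadherin of blood vessel endothelium, stood at 0.0749 and 0.0483 FPKM in the HCC827 libraries and at 0.00649 FPKM in HCC827/GR replicate 1, and the other HCC827/GR libraries listed it at 0. CDH6, a cadherin of kidney and developing tissues, had at most 0.0104 FPKM in any library. CDH11, a cadherin of mesenchymal cells and osteoblasts, was listed at 0 in both HCC827 libraries and in HCC827/GR replicate 1 and reached 0.00276 FPKM in HCC827/GR replicate 2. Thus CDH11, which like CDH2 is a mesenchymal cadherin, showed no comparable level beside it. None of the type II members was tested.

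Among the members without the catenin-binding end, CDH17 moved and CDH13 and CDH16 gave no test. CDH17, the cadherin of intestinal epithelium, had 0.224, 0.127 and 0.0395 FPKM in the resistant libraries and 1.39 and 1.05 FPKM in the HCC827 libraries, with no overlap. The mean was 0.130 ± 0.0920 FPKM (SD, n = 3) against 1.22 ± 0.241 FPKM (SD, n = 2), a ratio of the means of 9.36-fold lower. CDH17 fell by 0.97 on the log2(FPKM + 1) scale (standard error 0.16, limma, adjusted p = 0.0302). The call depended on each library, since the adjusted p was between 0.0792 and 0.0928 without each HCC827/GR library in turn, 0.0613 with a pseudocount of 0.1 and 0.0545 without the filter on low values, and without either HCC827 library the gene no longer passed the filter.

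CDH16 had 0.123, 0.172 and 0.0477 FPKM in HCC827/GR cells and 0.0831 and 0.0690 FPKM in the HCC827 libraries, so its groups overlapped. For CDH13, the entry with annotated transcripts had 0.0279, 0.0318 and 0.0782 FPKM against 0.0282 and 0.0147 FPKM, which also overlapped. The other CDH13 entry, an assembled transcript without an Ensembl identifier, had 1.39 FPKM in HCC827/GR replicate 1, and the remaining 4 libraries listed it at 0. This value came from 1 library and set no difference between the lines.

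The switch was also read from the make-up of the cadherin mRNA in each library. Over the 10 genes together the level was 20.3, 17.4 and 16.8 FPKM in HCC827/GR replicates 1 to 3 and 96.5 and 80.7 FPKM in the HCC827 libraries. The sum of HCC827/GR replicate 1 includes the 1.39 FPKM of the assembled CDH13 entry. The summed level was lower in every resistant library, at 18.2 ± 1.85 FPKM (SD, n = 3) against 88.6 ± 11.2 FPKM (SD, n = 2), which is 4.87-fold lower. The mean of CDH2 was 7.87 FPKM higher in HCC827/GR cells, whereas the mean of CDH1 was 23.1 FPKM lower and that of CDH3 was 54.7 FPKM lower. The added CDH2 mRNA was thus smaller than the CDH1 mRNA that was missing, and smaller still than the missing CDH3 mRNA. In bulk samples, fewer cells of a type and less RNA per cell cannot be told apart, and this holds for each of these levels.

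**Figure D2:**
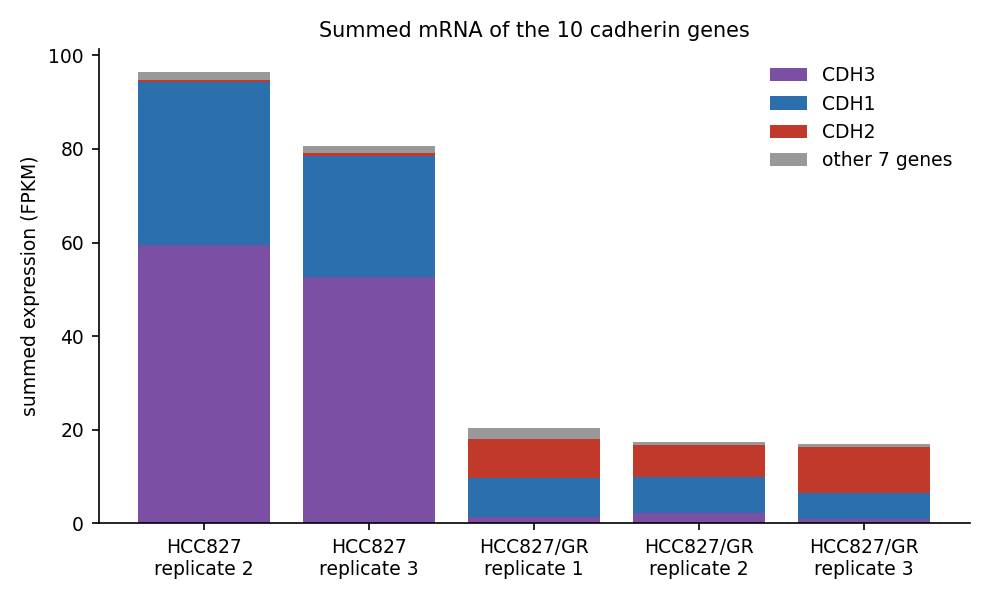
Summed expression of the 10 cadherin genes in FPKM in each of the 5 libraries, as stacked bars from 0 with CDH3, CDH1, CDH2 and the other 7 genes. The HCC827 bars reach 96.5 and 80.7 FPKM and consist mostly of CDH3 and CDH1, and the HCC827/GR bars reach 16.8 to 20.3 FPKM and consist mostly of CDH1 and CDH2.

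Within this sum, the shares of CDH2 and CDH3 separated the lines and that of CDH1 did not. CDH1 made up 41.2%, 44.7% and 32.7% of the cadherin mRNA in the HCC827/GR libraries and 36.0% and 32.1% in the HCC827 libraries, so its share overlapped between the lines. CDH2 made up 41.4%, 39.3% and 59.1% in the HCC827/GR libraries but 0.430% and 0.800% in the HCC827 libraries. CDH3 made up 6.32%, 12.0% and 5.18% in HCC827/GR cells and 61.7% and 65.3% in the HCC827 libraries. CDH3 was thus the leading member by share in the parental cells, and CDH1 and CDH2 were the leading members in the resistant cells.

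The ratio of CDH2 to CDH1 describes the classical form of the switch. It was 1.00, 0.879 and 1.81 in the HCC827/GR libraries and 0.0119 and 0.0249 in the HCC827 libraries, so CDH2 was close to CDH1 in replicates 1 and 2 of the resistant cells and above it in replicate 3. As log2 of (CDH2 + 1)/(CDH1 + 1), the ratio was 0.0059, -0.16 and 0.75 in the HCC827/GR libraries and -4.66 and -4.03 in the HCC827 libraries. The means differed by 4.54 on this scale, with an SD of 0.49 over 3 and of 0.44 over 2 libraries. The ratio of CDH3 to CDH1 went the other way, at 0.153, 0.268 and 0.159 in the HCC827/GR libraries and 1.71 and 2.03 in the HCC827 libraries. Both ratios separated the lines without overlap, and neither was tested, because the genes that form them were.

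The partners that bind the cadherin tail were examined next. Of 25 adherens junction genes, 23 had values and 21 were tested, with a median log2 fold change of -0.06. Of these 21, 1 was called, lower, beside 5.71% of all tested entries. An unadjusted p under 0.05 was found for 11 of the 21, beside 4410 of all 16189 tested entries. NECTIN4 had means of 0.0262 FPKM in HCC827/GR and 1.32 FPKM in HCC827 cells and was not called (limma, adjusted p = 0.0548). It reached the filter only through HCC827 cells, so it could be tested only as lower. β-catenin, encoded by CTNNB1, had 45.1, 43.8 and 47.1 FPKM in the resistant libraries and 47.1 and 45.4 FPKM in the HCC827 libraries, and these ranges overlapped (log2 fold change -0.03, standard error 0.088, adjusted p = 0.882 in limma). With less cadherin mRNA and a similar CTNNB1 level, there were 2.22, 2.52 and 2.80 FPKM of CTNNB1 per FPKM of the 10 cadherin genes in the HCC827/GR libraries, compared with 0.488 and 0.562 in the HCC827 libraries. α-catenin, encoded by CTNNA1, differed by a log2 fold change of -0.29 (limma, adjusted p = 0.275, standard error 0.14), and p120-catenin, encoded by CTNND1, by -0.36 (limma, adjusted p = 0.0768, standard error 0.091). Neither passed the threshold.

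JUP encodes plakoglobin, the catenin that works both in adherens junctions and in desmosomes, and it was the partner that was called. Its level was 7.76, 7.90 and 5.57 FPKM in HCC827/GR cells and 33.2 and 23.0 FPKM in the HCC827 libraries. JUP thus lay close to CDH1 in each of the 5 libraries. The means were 7.08 ± 1.31 FPKM (SD, n = 3) and 28.1 ± 7.15 FPKM (SD, n = 2), a ratio of the means of 3.97-fold lower, and JUP fell by 1.84 on the log2(FPKM + 1) scale (standard error 0.22, limma, adjusted p = 0.0145). The call was lost in 3 of the 5 fits that left out 1 library, with adjusted p of 0.0565 without HCC827/GR replicate 1, 0.0502 without HCC827/GR replicate 2 and 0.0769 without HCC827 replicate 2.

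**Figure D3:**
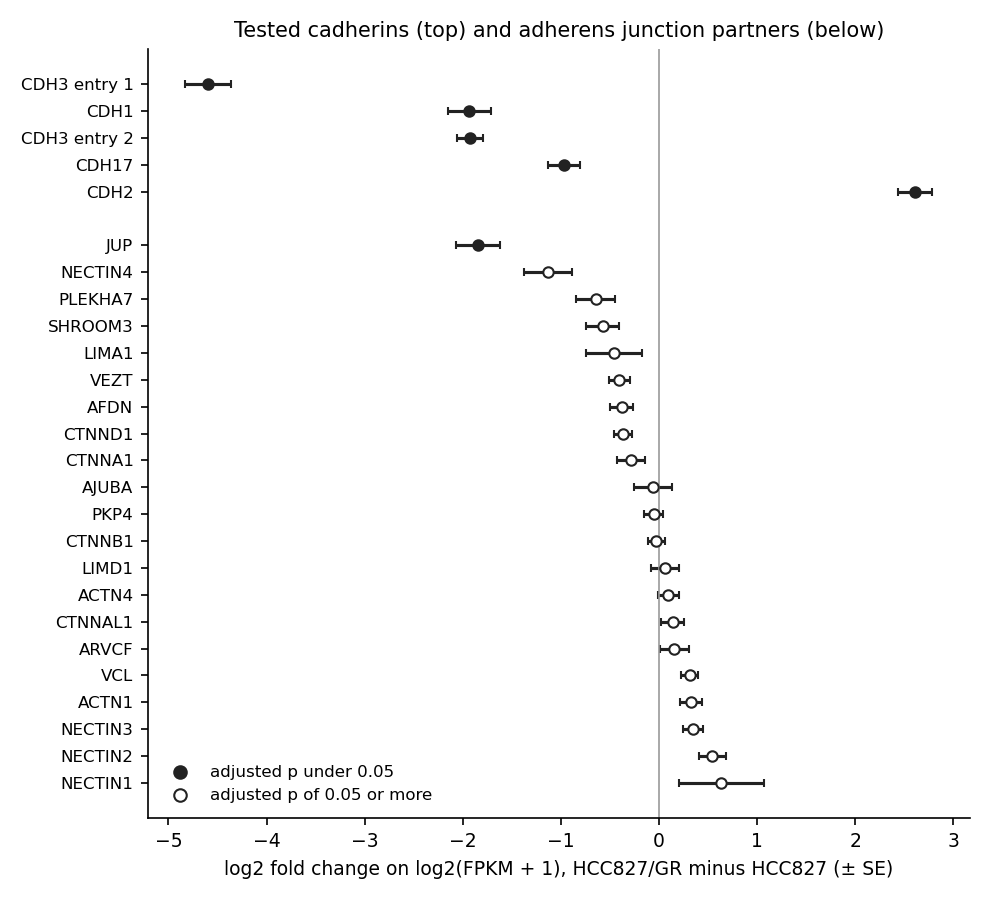
Log2 fold change on log2(FPKM + 1), HCC827/GR minus HCC827, with bars for the standard error, for the 5 tested entries of the cadherin members at the top and the 21 tested adherens junction partners below. Filled points have an adjusted p under 0.05. CDH2 is the only filled point to the right, and JUP is the only filled point among the partners.

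Among the tested entries with a gene symbol, the one whose pattern was most like that of CDH1 over the 5 libraries was JUP. Assembled loci without a symbol were not ranked. Likeness was taken as the root mean square difference between log2(FPKM + 1) values centred on their mean, and it was 0.0684 for JUP. The next were PHKG1, a phosphorylase kinase subunit gene, at 0.107 and PCDH7, a protocadherin gene, at 0.130. For CDH2 they were FGFR1, a fibroblast growth factor receptor gene, at 0.127, AC037198.3 at 0.130 and C4orf46 at 0.149. FGFR1 had 14.2, 12.0 and 18.6 FPKM in HCC827/GR replicates 1 to 3 and 0.935 and 1.59 FPKM in the HCC827 libraries, so that replicate 3 was the highest and replicate 2 the lowest of the resistant libraries for CDH2 and for FGFR1. These orders rest on 5 libraries of 2 kinds and are descriptions.

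Transcription factors that repress CDH1, activate it or uphold the epithelial state were then compared, since they are the usual regulators in a cadherin switch. Of 11 repressors, 10 had values and 6 were tested, and 2 were called higher, beside 5.26% of all tested entries, with a median log2 fold change of 0.53. ZEB2 reached the filter only through HCC827/GR cells, so this count is a description. ZEB2, a zinc-finger repressor of E-cadherin, had 1.51, 1.22 and 1.45 FPKM in the resistant libraries and 0.219 and 0.259 FPKM in the HCC827 libraries. ZEB2 rose by 0.95 on the log2(FPKM + 1) scale (standard error 0.12, limma, adjusted p = 0.0173), and this call was lost when the entries of 1 symbol were summed (adjusted p = 0.123). Its relative ZEB1 had 4.46, 4.88 and 4.59 FPKM against 1.77 and 2.69 FPKM and rose by 0.82 (standard error 0.15, limma, adjusted p = 0.0372). The Snail genes SNAI1 and SNAI2 had log2 fold changes of -0.36 and 1.19 and were not called (limma, adjusted p of 0.138 and 0.374).

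Of 10 factors listed as activating CDH1 or upholding the epithelial state, all had values and 8 were tested. Of these 8, 4 were called lower, beside 5.71% of all tested entries, and the median over the 8 was -1.15. GRHL2 and OVOL1 reached the filter only through HCC827 cells, so they could be tested only as lower, and the count and the median are descriptions. GRHL2, a grainyhead factor that maintains CDH1 expression in epithelia, had 0.0122, 0.0203 and 0.00963 FPKM in HCC827/GR cells and 3.82 and 5.59 FPKM in the HCC827 libraries. It was near 0 in all 3 resistant libraries and fell by 2.47 on the log2(FPKM + 1) scale (standard error 0.17, limma, adjusted p = 0.00469). Its relative GRHL1 fell by 0.74 (standard error 0.11, limma, adjusted p = 0.0232). OVOL1, an epithelial zinc-finger factor, fell by 1.35 (standard error 0.27, limma, adjusted p = 0.0429), and it was listed at 0 in HCC827/GR replicates 1 and 3. KLF5, a Krüppel-like factor of epithelia, had 5.59, 5.96 and 7.85 FPKM against 13.9 and 21.4 FPKM and fell by 1.30 (standard error 0.23, limma, adjusted p = 0.0355). Of these 6 regulators, GRHL2 kept its call with each library left out in turn (adjusted p between 0.0270 and 0.0327), and each of the other 5 lost it at least 3 times, with adjusted p of up to 0.122.

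Genes that cut, internalise or dephosphorylate cadherin complexes were mostly not called. Of 20 such genes, 19 had values, 18 were tested and 1 was called, beside 11.0% of all tested entries, with a median log2 fold change of 0.17. PTPRF, a receptor tyrosine phosphatase that acts on the cadherin-catenin complex, had 45.4, 53.0 and 44.6 FPKM in HCC827/GR replicates 1 to 3 and 31.2 and 29.6 FPKM in the HCC827 libraries. It rose by 0.63 on the log2(FPKM + 1) scale (standard error 0.11, limma, adjusted p = 0.0372), and the call was lost with any library left out (adjusted p between 0.0754 and 0.139). The largest change among the tested genes of this list was that of MMP9, a secreted protease gene, and it was not called (log2 fold change 2.15, standard error 0.81, limma, adjusted p = 0.179). The level of MMP9 was 12.3, 1.93 and 15.9 FPKM in the resistant libraries against 1.14 and 0.779 FPKM in the HCC827 libraries, so the groups did not overlap but HCC827/GR replicate 2 stood apart, and without it the adjusted p was 0.0202 in limma. In all, 6 of the 18 had an unadjusted p under 0.05, beside 4410 of all 16189 tested entries.

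More distant relatives were examined to see whether the family moved as a whole. Of 13 other CDH genes, 8 had values and only CDH24 was expressed enough to be tested, and its log2 fold change was 0.09 (limma, adjusted p = 0.628, standard error 0.10). Of 28 atypical cadherins and protocadherins, 21 had values, 9 were tested and 3 were called, all lower, beside 5.71% of all tested entries, with a median of -0.22. PCDH1 reached the filter only through HCC827 cells and could enter the count only as lower. PCDH1, a protocadherin of airway epithelium, had 0.0624, 0.0560 and 0.0800 FPKM in the resistant libraries and 4.77 and 3.38 FPKM in the HCC827 libraries. PCDH1 fell by 2.24 on the log2(FPKM + 1) scale (standard error 0.16, limma, adjusted p = 0.00509). PCDH7 had 1.92, 1.57 and 0.780 FPKM against 7.54 and 6.82 FPKM and fell by 1.78 (standard error 0.24, limma, adjusted p = 0.0178). CDHR2, a cadherin of intestinal and kidney microvilli, fell by 1.17 (standard error 0.19, limma, adjusted p = 0.0276). PCDH1 was called without each library in turn, PCDH7 in 2 of these 5 fits and CDHR2 in none. Over the 6 lists together, 63 of 107 genes were tested, 3 were higher and 8 lower, beside 11.0% of all tested entries called, and the median was -0.03. These counts include ZEB2, GRHL2, OVOL1, PCDH1 and, among the genes not called, NECTIN4, which passed the filter through 1 line only, and are descriptions.

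The position of the genes was compared as well, because 6 of the 10 members lie on chromosome 16 and CDH3 and CDH1 are neighbours. Of the 10 nearest tested protein-coding genes, 5 on each side of the pair, 0 were called by limma, beside 11.0% of all tested entries. Of these 10, 0 had an unadjusted p under 0.05, beside 4410 of all 16189 tested entries. Their log2 fold changes were between -0.79 (CHTF8, limma, adjusted p = 0.234) and 0.33 (ZFP90, limma, adjusted p = 0.623), with a median of -0.12. The CHTF8 entry joins transcripts of more than 1 gene. CDH3 and CDH1 were thus the only ones of these tested genes that were called. For 10 neighbours, a called count of 0 is close to the share over all tested entries. Around CDH2 on chromosome 18, 1 of the 10 nearest tested genes was higher and 2 were lower, beside 5.26% and 5.71% of all tested entries. Of these 10, 4 had an unadjusted p under 0.05 in limma. CHST9 reached the filter only through HCC827/GR cells and could be tested only as higher, so this count is a description. CHST9, which encodes a sulfotransferase and is the nearest tested gene on 1 side, had means of 4.05 FPKM in HCC827/GR and 0.207 FPKM in HCC827 cells and rose by 2.06 on the log2(FPKM + 1) scale (limma, adjusted p = 0.00629). On the other side lie desmosomal cadherin genes, of which DSC2 fell by 1.24 (limma, adjusted p = 0.0215) and DSG2 fell by 0.84 (limma, adjusted p = 0.0120), whereas DSC3 had a log2 fold change of 0.54 and was not called (limma, adjusted p = 0.200). The call of CHST9 was kept without each library in turn, that of DSG2 was lost in 3 of the 5 fits and that of DSC2 in all 5.

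**Figure D4:**
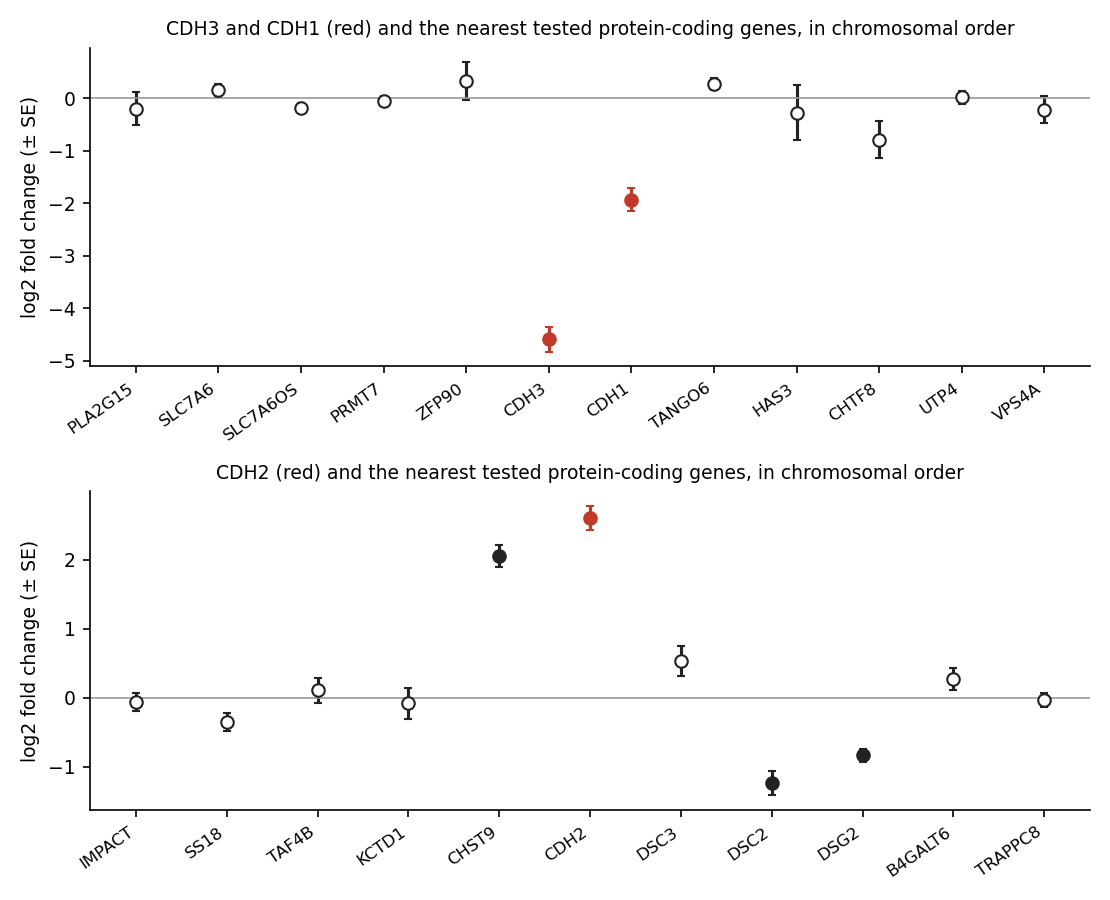
Log2 fold change on log2(FPKM + 1), HCC827/GR minus HCC827, with bars for the standard error, for CDH3 and CDH1 (upper panel, red) and CDH2 (lower panel, red) and for the 5 nearest tested protein-coding genes on each side in chromosomal order. Filled points have an adjusted p under 0.05. None of the neighbours of CDH3 and CDH1 is filled, and around CDH2 the filled neighbours are CHST9, which is higher, and DSC2 and DSG2, which are lower.

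Markers of other cell types were read beside the members, since CDH5 marks endothelium and CDH11 marks fibroblasts. EPCAM, an epithelial adhesion gene, had 7.32, 10.8 and 8.53 FPKM in HCC827/GR cells and 86.9 and 72.6 FPKM in the HCC827 libraries and fell by 3.04 on the log2(FPKM + 1) scale (limma, adjusted p = 0.00349), so it moved with CDH1 and CDH3. Of 5 tested epithelial and lung markers, 4 were lower, beside 5.71% of all tested entries, and KRT8 was not called (limma, adjusted p = 0.101). The 10 fibroblast markers summed to 2.76 to 3.09 FPKM in HCC827/GR and 3.59 to 3.62 FPKM in HCC827 cells, and of the 2 tested 0 were called by limma and 1, PDGFRA, had an unadjusted p under 0.05. Most of the gap between the sums was PDGFRA, at 1.88 to 1.91 FPKM against 2.40 and 2.53 FPKM, and the other 9 markers summed to 0.848 to 1.20 FPKM against 1.06 and 1.22 FPKM, which overlapped. Of these 9, 3 were lower in HCC827/GR without overlap and 1 was higher, PDGFRB. Over all tested entries, 46.3% showed no overlap between the groups, so such counts of markers are descriptions. PDGFRB had 0.278, 0.184 and 0.184 FPKM against 0.00777 and 0.0147 FPKM and moved with CDH2. The 9 endothelial markers with a value summed to 0.761 to 1.42 FPKM against 3.61 to 4.53 FPKM, of which most was a PECAM1 entry without an Ensembl identifier in HCC827 cells, and ERG was listed at 0 in every library. Without PECAM1 the sum of the other 8 endothelial markers went the other way, at 0.761 to 1.42 FPKM in HCC827/GR and 0.182 and 0.296 FPKM in HCC827 cells. Of these 8, KDR, ROBO4 and ESAM were higher in HCC827/GR cells without overlap, beside the same 46.3% of all tested entries. ROBO4 had 0.307, 0.331 and 0.950 FPKM in HCC827/GR cells and both HCC827 libraries listed it at 0. The 5 leukocyte markers with a value summed to 33.0 to 38.3 FPKM against 31.2 to 39.3 FPKM, nearly all of it CD68. The part of these markers in the levels of the cadherin genes was not tested.

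With Ballgown's model, which includes library size as a covariate, 0 of the 4 tested members were called, although all 4 had an unadjusted p under 0.05. The adjusted p was then 0.176 for CDH1, 0.173 for CDH2, 0.161 for CDH3 and 0.170 for CDH17, with the directions kept, and the model called 13 of all 16189 entries, with 2944 at an unadjusted p under 0.05.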

How the data were processed

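RNA of 3 HCC827/GR and 2 HCC827 libraries was examined through the FPKM values that the authors deposited, 1 per gene or assembled locus and library. The authors trimmed reads with Cutadapt, checked them with FastQC, mapped them with Bowtie2 and TopHat2, assembled transcripts with StringTie and combined the assemblies. The submitters' processing notes name hg18, and versions are not given in the sources used here. A total of 1 FPKM column matched no sample and was not used.

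Positions came from GENCODE 29 (GRCh38) through the Ensembl transcript identifiers, of which 135164 of 135299 were found, and no genome position of the authors was used. FPKM values were compared as log2(FPKM + 1) with limma 3.58.1 under R 4.3.3 (two-sided, moderated with a mean-variance trend), for entries whose mean reached 0.5 FPKM, with Benjamini-Hochberg adjustment over all 16189. Ratios of means were taken on FPKM. An exact 0 was taken as a listed value, not as absence. Other steps used Python 3.11.15 with numpy 2.4.6, pandas 2.3.3 and matplotlib 3.10.9. The fits were tested on simulated data.

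Named were all members, 4 catenin genes and up to 8 called genes of each list. The 3 entries with a gene symbol most like CDH1 and CDH2 and the 5 nearest tested genes on each side were also named. SNAI1, SNAI2, MMP9, NECTIN4 and the markers were named beside this rule, after their values had been seen. The members and lists were chosen with earlier results of these data known. List genes without values (CTNND2, PVR, PSENEN, GSC, CDH7, CDH10, CDH12, CDH19 and CDH22 among them) were not analysed here. The alternatives were Ballgown's model, a block on the replicate number, limma with no trend, quantile normalization, median-ratio scaling, another pseudocount, other filters, summed entries and each library left out in turn.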

Additional observations from a re-analysis of the deposited data

How the results depend on the processing

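No result changed direction among those called, and scaling, quantile normalization and limma without the trend kept all 4 called members. With a mean of at least 1 FPKM, CDH17 was not tested, and all 3 members tested there were called. The number of called entries was 1775, and it was 13 with Ballgown's model, 0 with the replicate block and 432 to 884 with 1 library left out. The called members numbered 4, and they were 0 with Ballgown's model, 0 with the replicate block, 3 with a pseudocount of 0.1, without the filter or with a mean of at least 1 FPKM, and 2 to 3 with 1 library left out (2 without HCC827 replicate 2 or 3). The called genes of the 6 lists numbered 11, and they were 0 with Ballgown's model, 0 with the replicate block, 6 without the filter and 3 to 4 with 1 library left out. The difference in the log2 ratio of CDH2 to CDH1 was 4.54, and it was 5.83 with a pseudocount of 0.1 and 4.23 to 4.86 with 1 library left out.

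What the replicate numbers stand for is not stated in the labels. Deviations of same-numbered libraries from their group means correlated at 0.0328 (replicate 2) and 0.0147 (replicate 3), and only these pairs exist. With 2 HCC827 libraries, their deviations mirror each other, so these correlations are not independent. They cannot decide whether same-numbered libraries were paired or shared a batch. With the block, limma had 3545 entries at an unadjusted p under 0.05, among them all 4 tested members, whose adjusted p was 0.124 for CDH1, CDH2 and CDH3 and 0.153 for CDH17, and 21 of the 63 tested list genes. Ballgown's model had 15 of these 63. Both models fit more terms to the 5 libraries than the main fit, so fewer calls can come from the design alone. In the block, HCC827/GR replicate 1 has no HCC827 library of its number and adds nothing to the comparison.

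Over all 14 alternatives the log2 fold change was between -2.14 and -1.70 for CDH1, 2.49 and 3.76 for CDH2 and -5.29 and -4.42 for CDH3, and over 11 it was between -2.59 and -0.86 for CDH17. CDH24, NECTIN4 and NKX2-1 were not followed as single genes in these alternatives. Over the other single genes except these 4 members, Ballgown's model and the block aside, 474 values kept their side of the threshold. A further 61 values lost the call and 1, MMP9 without HCC827/GR replicate 2, gained it. The 474 include values of genes not called in the main fit, which had no call to lose. A fit that leaves 1 HCC827 library assumes that it varies like the others. FPKM carries no depth, so low levels such as those of CDH5, CDH6 and CDH11 have no counting limit.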
